A study of Mus musculus with 18 samples.

Results

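The astrocyte-enriched fraction of mouse brain was compared between Atxn2-CAG100-KIN and WT animals. The knock-in (KIN) carries an expanded run of 100 CAG repeats in the mouse Atxn2 gene on both alleles, and the WT animals were littermates on the same C57BL/6 background. All mice were 10 months old and untreated. Per the study's methods 2 of the 3 WT and KIN pairs were male and 1 was female, so sex varied within each group. The labels do not give it for each library, so it was no term of the fit. Of the sex-linked genes, Xist had 33, 102 and 25 counts in WT and 5, 47 and 83 counts in KIN. Uty had 4, 2 and 6 against 3, 0 and 0 counts, and Kdm5d 13, 5 and 8 against 1, 4 and 3 counts. No library was assigned a sex from these, and the balance of sex between the groups was not tested. Whole brains were dissociated, microglia were removed first with CD11b beads, and astrocytes were then caught with ACSA-2 beads, whose epitope lies on the protein of Atp1b2. Small RNA libraries came from 3 WT and 3 KIN astrocyte preparations, 6 of the 18 libraries of the series. A feature was taken into the comparison when it had 5 or more counts in 2 or more of the 6 libraries. That left 6433 features of 27241 with any count in these libraries, and of 32718 with any count in the series. Gene copies of a tRNA had been summed per isodecoder (tRNAs with the same anticodon and the same body), and transcripts had been summed per gene.

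Astrocytes take up glutamate, GABA and glycine from the synapse, buffer potassium and water, supply lipids and secrete matrix proteins, and each of these tasks has well known marker genes. Mature miRNAs are short RNAs cut from hairpins, and the seed, bases 2 to 8 from the 5′ end, chooses most of their target mRNAs. Several miRNAs often lie in one primary transcript and are made together, as in the miR-17-92 cluster. tRNAs carry amino acids to the ribosome, and snoRNAs guide the modification of ribosomal RNA. ATXN2 is an RNA-binding protein of the cytosol that acts in translation and in stress granules.

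The miRNAs on which the comparison turned fall into a few seed groups, and the first set is shown because its members share seeds across 2 clusters. Capitals mark the seed. The 6 hairpins of miR-17-92 lie within 836 bases at chr14:115281103-115281938 on the plus strand (GRCm39), inside the noncoding host gene Mir17hg. The hairpins of miR-106b, miR-93 and miR-25 lie within 498 bases at chr5:138163583-138164080 on the minus strand. Sequences are the RefSeq mature forms of GRCm38.p6, and each of the 352 tested miRNAs with an entry there, of 418 tested, had the same sequence in the deposited table.
mmu-miR-17-5p: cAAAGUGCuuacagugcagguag
mmu-miR-20a-5p: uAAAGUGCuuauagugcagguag
mmu-miR-106b-5p: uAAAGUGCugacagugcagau
mmu-miR-93-5p: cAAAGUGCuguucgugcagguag
mmu-miR-18a-5p: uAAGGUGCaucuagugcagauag
mmu-miR-19a-3p: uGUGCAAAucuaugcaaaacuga
mmu-miR-19b-3p: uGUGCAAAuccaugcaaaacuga
mmu-miR-92a-3p: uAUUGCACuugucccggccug
mmu-miR-25-3p: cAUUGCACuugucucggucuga

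The second set is shown because it held 7 of the 9 mature miRNAs that were lower in KIN astrocytes. miR-200b, miR-200a and miR-429 come from chr4:156138362-156140207 on the minus strand, miR-200c from chr6:124695285-124695353 on the minus strand, and miR-182, miR-96 and miR-183 from chr6:30165917-30169736 on the minus strand. The seeds of miR-200b, miR-200c and miR-429 are the same.
mmu-miR-200a-3p: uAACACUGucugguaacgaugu
mmu-miR-200b-3p: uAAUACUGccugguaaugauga
mmu-miR-200c-3p: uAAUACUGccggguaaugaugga
mmu-miR-429-3p: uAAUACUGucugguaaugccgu
mmu-miR-182-5p: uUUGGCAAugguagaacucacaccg
mmu-miR-96-5p: uUUGGCACuagcacauuuuugcu
mmu-miR-183-5p: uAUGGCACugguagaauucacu

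The third set holds the single miRNAs with large changes and members of families that changed in part. miR-335 is read from chr6:30741298-30741395 on the plus strand and miR-574 from chr5:65127661-65127738 on the plus strand.
mmu-miR-335-5p: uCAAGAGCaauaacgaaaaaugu
mmu-miR-574-3p: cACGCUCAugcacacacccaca
mmu-miR-142a-3p: uGUAGUGUuuccuacuuuaugga
mmu-miR-219a-5p: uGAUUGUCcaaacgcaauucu
mmu-miR-338-3p: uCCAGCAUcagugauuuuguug
mmu-miR-34b-5p: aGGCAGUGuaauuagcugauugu
mmu-miR-34a-5p: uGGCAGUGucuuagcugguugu
mmu-miR-16-5p: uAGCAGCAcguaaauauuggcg

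The 6 libraries held between 3144427 and 3980687 counts. KIN libraries showed 14301 to 14987 features with a count, and WT libraries 16565 to 18707, with WT replicate 2 the lowest of its group. The TMM factor, which evens out composition between libraries, was 0.981 for that library, 1.12 and 1.18 for the other WT libraries and 0.888 to 0.960 for the KIN libraries. WT replicate 2 therefore stood apart from the other WT libraries. Levels are CPM (counts per 1e6 counts of the TMM-scaled library), and differences are log2 KIN over WT with the standard error (SE) of the edgeR fit. The call, higher or lower, required an adjusted p of at most 0.05 and a difference of at least 1 on the log2 scale. A list's summed level is given on the same scale unless library totals are named. In a bulk fraction, fewer cells of a type and less RNA per cell cannot be told apart. Levels of protein-coding genes rest on short reads from small RNA libraries and not on whole mRNAs. Ensembl coding features took a mean of 4.13% of all counts in WT and 3.54% in KIN. Whether the yield of such short fragments or the breakdown of RNA differed between the groups was not tested.

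The test called 605 of the 6433 features (9.40%), of which 167 stood higher (2.60%) and 438 lower (6.81%) in KIN. The groups did not overlap in 2205 features (34.3%), and the median difference of all features was −0.31. Mature miRNAs were called higher in 73 of 418 (17.5%) and lower in 9 (2.15%), with a median of 0.68. tRNA isodecoders were called higher in 10 of 176 (5.68%) and lower in 1, with a median of 0.34. Protein-coding genes whose reads fell mostly on coding transcripts, called mRNAs below, were called higher in 8 of 2877 (0.278%) and lower in 190 (6.60%), with a median of −0.56. lncRNAs had a median of −1.02, with 105 of 801 lower (13.1%) and 7 higher. With 1 library left out in turn, 52 of the 605 kept their call in all 6 fits, and 406 had it in 1 fit or none. The zero point depends on the scaling. Over the other 3 scalings the median of all features lay between −1.12 and −0.12. Against that median, the miRNA median lay 0.98 to 1.08 higher and the tRNA median 0.65 to 0.68 higher under all 4, and the mRNA median lay 0.25 to 0.27 below it.

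**Figure D1:**
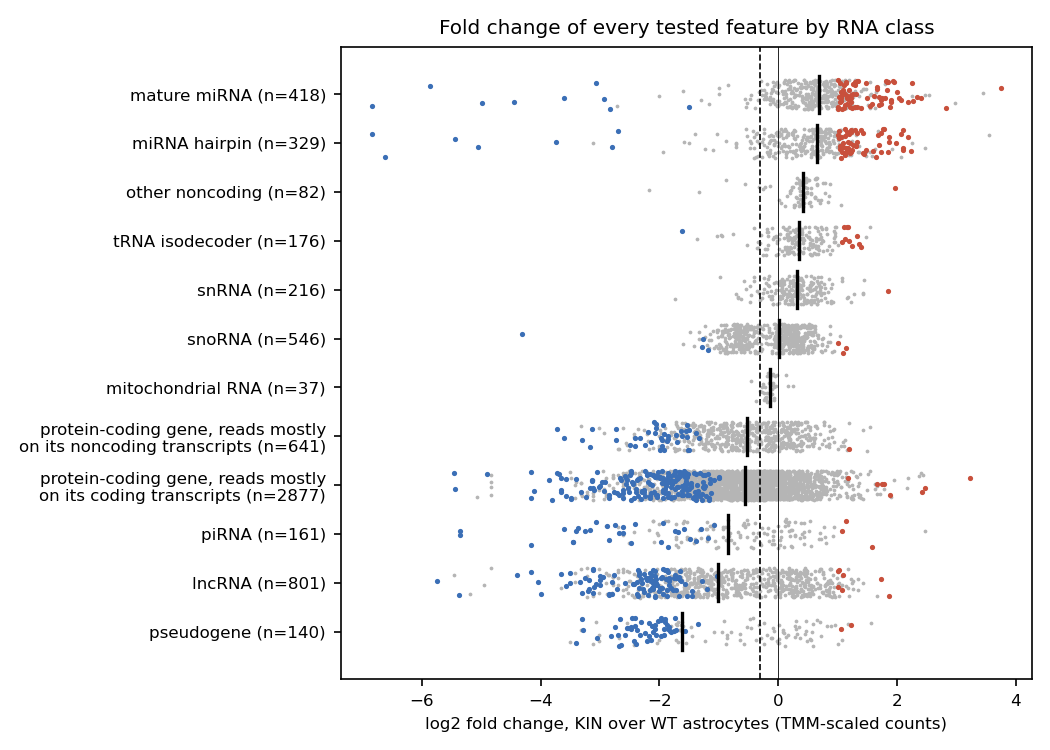
Each point is 1 tested feature, placed by its log2 fold change (KIN over WT, TMM-scaled counts) in a row for its RNA class, with the number tested. Red points were called higher, blue points lower, short bars are class medians and the dashed line is the median of all features at −0.31. miRNAs and their hairpins sit to the right of that line, and lncRNAs and pseudogenes to the left.

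The miR-17-92 cluster, known for its activity in dividing cells, was higher in KIN astrocytes in all 8 mature miRNAs tested, with a median difference of 1.94. miR-19b-3p counted 67.4, 142 and 82.4 CPM in WT and 389, 401 and 373 CPM in KIN (2.00 ± 0.25 SE, adjusted p = 0.00105). miR-17-5p counted 20.7, 46.3 and 32.6 CPM in WT and 124, 110 and 116 CPM in KIN (1.81 ± 0.28, adjusted p = 0.00226). Every KIN library lay above every WT library for both, and WT replicate 2 was the highest of the WT libraries. miR-20a-5p counted 32.9, 79.1 and 47.9 CPM against 213, 197 and 184 CPM (1.89 ± 0.28). miR-92a-3p counted 48.0, 68.9 and 62.0 CPM against 139, 166 and 163 CPM, and its difference of 1.39 ± 0.21 was the smallest of the cluster. The rarer members miR-18a-5p and miR-19a-3p differed by 2.03 ± 0.32 and 2.18 ± 0.33. Between 6 and 8 of the 8 were called under each of the other scalings and with each library left out.

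The host gene of the cluster was called higher as well. Mir17hg, at chr14:115278211-115284162 on the plus strand, had 58.5, 115 and 74.2 CPM in WT and 310, 305 and 288 CPM in KIN (1.87 ± 0.24, adjusted p = 0.00106). Reads of the cluster's hairpins can be counted for the host gene as well, and how many were was not tested, so Mir17hg is not a separate measure of the primary transcript. The related miR-106b-25 cluster differed less. miR-106b-5p, with the seed of miR-17-5p, had 41.8, 96.5 and 56.6 CPM in WT and 164, 131 and 130 CPM in KIN (1.13 ± 0.28). miR-93-5p had 66.0, 118 and 86.7 CPM in WT and 177, 186 and 182 CPM in KIN (1.01 ± 0.22, adjusted p = 0.0158). miR-25-3p, with the seed of miR-92a-3p, did not pass the test (0.47 ± 0.30, adjusted p = 0.301), and its groups overlapped. All 4 tested miRNAs with the seed AAAGUGC were called higher, against 2 of 4 with library totals and 2 of 4 with miRNA factors. miR-106b-5p and miR-93-5p were each called in 1 of the 6 fits without a library, the fit without WT replicate 2.

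miR-335-5p and miR-574-3p also rose. miR-335-5p, encoded in the imprinted Mest gene, had 36.4, 67.3 and 46.2 CPM in WT and 210, 268 and 246 CPM in KIN (2.27 ± 0.24, adjusted p = 0.000327). miR-574-3p had 5.66, 9.47 and 7.89 CPM in WT and 38.8, 35.8 and 35.6 CPM in KIN (2.25 ± 0.30, adjusted p = 0.00127). Every KIN library lay above every WT library in both. miR-542-3p was found with 1 count in the WT and 16 counts in the KIN libraries, a ratio of 18.3 with a 95% exact counting interval of 2.85 to 768. Other miRNAs that were called higher included miR-31-3p (0.526 ± 0.248 CPM in WT and 2.95 ± 1.72 CPM in KIN, mean ± SD, n = 3 each) and miR-1298-3p (0.351 ± 0.139 against 1.92 ± 0.599 CPM). The noncoding gene Gm49890, which holds the Mir31 hairpin, was higher too (1.73 ± 0.40). miR-31-3p and Gm49890 were each called in 2 of the 6 fits without a library. miR-542-3p and miR-1298-3p were tested in 4 of those fits and called in 1. miR-542-3p, miR-31-3p and miR-1298-3p each passed the count minimum through KIN libraries alone, so the filter in part set their direction.

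The miRNAs of oligodendrocytes, the myelin-forming cells, were higher in 4 of 6, against 17.5% of all mature miRNAs. The Mir219b hairpin lies inside Mir219a-2 at chr2:29735643-29735739, on the opposite strand. How far their miRNAs are separate measures was not tested. miR-219a-5p had 796, 1568 and 989 CPM in WT and 3086, 2073 and 2562 CPM in KIN (1.20 ± 0.22, adjusted p = 0.00628). miR-338-3p had 379, 907 and 512 CPM in WT and 1574, 919 and 1128 CPM in KIN (1.01 ± 0.27, adjusted p = 0.0326), so that WT replicate 2 and KIN replicate 2 nearly met. With library totals, with miRNA factors, in the fit of all 18 libraries, and without KIN replicate 1, WT replicate 1 or WT replicate 3, 0 of the 6 were called. The mRNA markers of oligodendrocytes stood beside them without a call: of 9 tested, 0 were called by edgeR or DESeq2 and 1 had an unadjusted p at most 0.05, with a median of −0.04 and summed levels of 33.4 to 35.8 CPM in WT and 27.3 to 33.2 CPM in KIN.

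Members of the p53-responsive miR-34 family were higher in 4 of 6, against 17.5% of all mature miRNAs. miR-34c-5p had 618, 1203 and 908 CPM in WT and 1818, 1997 and 1882 CPM in KIN (1.06 ± 0.20, adjusted p = 0.00649). miR-34b-5p had 144, 327 and 221 CPM in WT and 548, 489 and 496 CPM in KIN (1.15 ± 0.24). Both come from 1 locus at chr9:51014334-51014945 on the minus strand. miR-34a-5p, read from another chromosome but with the same seed, had 91.9, 171 and 123 CPM in WT and 168, 184 and 163 CPM in KIN and did not pass (0.41 ± 0.23, adjusted p = 0.223). With library totals or miRNA factors and without WT replicate 1 or WT replicate 3, 0 of the 6 were called.

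The miR-15/16 family, which restrains the cell cycle, had 4 of 9 members called higher, against 17.5% of all mature miRNAs. miR-16-5p had 1013, 2226 and 1345 CPM in WT and 3854, 3549 and 3250 CPM in KIN (1.22 ± 0.22, adjusted p = 0.00584). miR-15a-5p had 151, 362 and 203 CPM against 732, 499 and 533 CPM (1.30 ± 0.27). With miRNA factors and without KIN replicate 1 or WT replicate 3, 0 of the 9 were called. The miR-181 family had 3 of 7 called, with miR-181a-5p at 850, 1666 and 1071 CPM in WT and 2687, 2641 and 2409 CPM in KIN (1.11 ± 0.20), and its host Mir181a-1hg differed by 1.10 ± 0.19. With library totals 1 of the 7 was called, and with miRNA factors and without WT replicate 1, 0 were. miR-181a-5p was called in 3 of the 6 fits without a library and miR-181a-1-3p in 1.

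In large families nearly all members lay above 0, as did 358 of all 418 mature miRNAs. The calls below stand beside the 17.5% of all mature miRNAs that were called higher. In the let-7 family 2 of 22 were called and all 22 differences were above 0 (median 0.73, or 0.01 with miRNA factors). The miR-30 family had 1 of 11 called, the miR-29 family 1 of 7, the miR-99/100 and miR-125 families 2 of 11 and the miR-23/27/24 clusters 0 of 8, of which 5 had an unadjusted p at most 0.05 and DESeq2 called 2. The called members of the let-7, miR-30 and miR-29 families were each called in 1 of the 6 fits without a library. miR-125b-5p, the most abundant of these, had 5078, 7220 and 6143 CPM in WT and 12902, 12735 and 11216 CPM in KIN, a difference of 1.00 ± 0.13 (adjusted p = 0.00127) that fell just short of the threshold of 1. Of 16 seed families with 3 or more tested members, 15 had a median above 0 and every member above 0. With factors taken from the miRNAs themselves, which sets the miRNA median to −0.04, 13 of the 16 medians stayed above 0. The exception under every scaling was the family of miR-200b, miR-200c and miR-429.

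Marker miRNAs of other cells gave a mixed picture. Neuronal miRNAs were called in 0 of 15 (4 at an unadjusted p at most 0.05, and 1 by DESeq2), and miR-124-3p, the main miRNA of neurons, had 859, 2586 and 965 CPM in WT and 1576, 1396 and 746 CPM in KIN (−0.25 ± 0.35). miR-9-5p, abundant in the neural lineage, differed by 0.23 ± 0.18. Myeloid miRNAs were called in 1 of 8, miR-142a-3p, with 5.93, 9.22 and 6.80 CPM in WT and 25.7, 44.6 and 22.5 CPM in KIN (2.07 ± 0.35, adjusted p = 0.00391). The mRNA markers of microglia were near 0 beside it: 8 of 22 had no count in any of the 6 libraries, none reached the count minimum, and their summed level was 1.28 to 3.26 CPM in WT and 2.20 to 3.03 CPM in KIN. On library totals it was 2.91 CPM on average in WT astrocytes and 212 CPM in WT microglia. miR-142a-3p lost its call without WT replicate 3. Vascular miRNAs were called in 0 of 8, erythroid miRNAs in 0 of 5 and miR-204 and miR-211 of the choroid plexus in 0 of 2, with 1, 0 and 0 at an unadjusted p at most 0.05 and 0 by DESeq2. The Dlk1-Dio3 imprinted cluster was called in 1 of 49.

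The epithelial and sensory-cell miRNAs shown above were the ones that fell, in 7 of 8 tested. miR-200a-3p had 28.6, 15.9 and 37.3 CPM in WT and 0, 0.628 and 0 CPM in KIN. These were 305 counts against 2 counts, a ratio of WT over KIN of 133 with a 95% exact counting interval of 36.6 to 1105 (edgeR adjusted p = 0.000261). miR-200b-3p had 29.4, 10.2 and 31.5 CPM in WT and 0.606, 1.57 and 0 CPM in KIN (−4.99 ± 0.66). miR-429-3p had 13.5, 5.38 and 16.6 CPM in WT and 0.303, 0.941 and 0.296 CPM in KIN (−4.44 ± 0.60). In the same group, WT replicate 2 was the lowest WT library for each of these miRNAs and still lay above every KIN library. miR-200c-3p, from another chromosome, had 89 counts in WT and 1 count in KIN, a ratio of 77.7 with an interval of 13.6 to 3104. miR-200a-3p, miR-429-3p and miR-200c-3p each passed the count minimum through WT libraries alone.

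The miR-183/96/182 cluster, known from sensory cells, fell in all 3 tested members. miR-182-5p had 11.3, 9.22 and 15.0 CPM in WT and 1.21, 1.57 and 1.78 CPM in KIN (−2.93 ± 0.40, adjusted p = 0.00127). miR-96-5p and miR-183-5p differed by −3.61 ± 0.49 and −3.07 ± 0.53. All 7 were called lower with every library left out in turn and under every scaling. The eighth, miR-375-3p, lay on the other side with 70.1, 103 and 81.8 CPM in WT and 131, 173 and 148 CPM in KIN (0.83 ± 0.22, adjusted p = 0.0283), which was under the fold threshold. The 2 other miRNAs called lower were miR-133a-3p and miR-8114, each called in 1 of the 6 fits without a library.

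**Figure D2:**
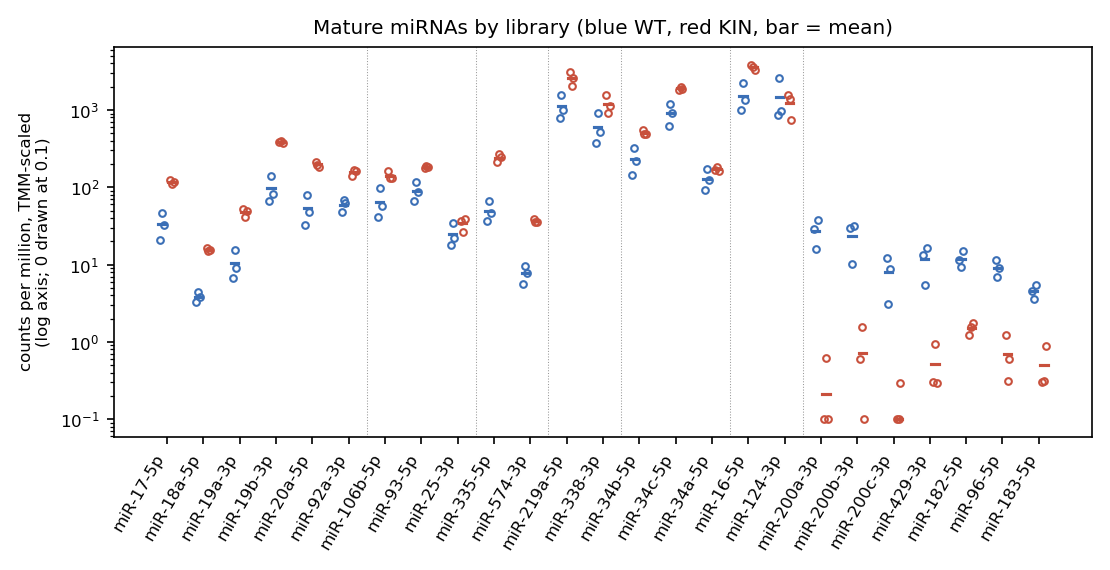
Levels of 25 mature miRNAs in each library (CPM, TMM-scaled, log axis, 0 drawn at 0.1), blue for WT and red for KIN, with bars at the group means of 3 libraries. Dotted lines part miR-17-92, miR-106b-25, single miRNAs, oligodendrocyte, miR-34, miR-16 and miR-124, and the epithelial and sensory set. The groups are apart at both ends and overlap for miR-25-3p, miR-34a-5p and miR-124-3p.

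Genes that mark astrocytes had lower levels of these short reads in KIN. The miRNAs reported as abundant in astrocytes did not. Of 18 tested, 17 had a difference above 0, 4 were called higher and 0 lower. Their median was 0.85, against 0.68 for all mature miRNAs, and 0 of the 4 were called in all 6 fits without a library. Over the 4 lists of astrocyte functions, 67 genes were tested, 35 were called lower (52.2%) and 0 higher, the median difference was −1.27, and the groups did not overlap in 49 (73.1%). To check the labelled cell type, the transmitter list was summed in the WT fractions, and on library totals it came to a mean of 329 CPM in astrocytes, 15.2 CPM in neurons and 23.8 CPM in microglia. The identity list was less apart, with 4927, 2154 and 2982 CPM in that order. Of these sums, Ttyh1 alone gave 4538, 2014 and 2773 CPM. Only 189 of its 114963 counts in the astrocyte libraries lay on coding transcripts. The identity sum in astrocytes was thus mostly noncoding reads of Ttyh1, so it cannot serve as a check of the cell type. Not every set followed the label. Neuronal miRNAs came to 2387 CPM in WT astrocytes and 182 CPM in WT neurons, while neuronal genes came to 82.1 and 156 CPM. Oligodendrocyte miRNAs came to 3059 CPM in WT astrocytes and 50.4 CPM in WT neurons. Between 10 and 38 of the 67 astrocyte genes were called lower with 1 library left out, and their median lay 0.95 to 0.98 below that of all features under all 4 scalings.

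Uptake and turnover of neurotransmitters had 10 genes tested, all with differences below 0, and 6 called lower. Slc1a2, the main glutamate transporter of the forebrain, had 122, 137 and 133 CPM in WT and 48.1, 43.0 and 42.7 CPM in KIN (−1.55 ± 0.21, adjusted p = 0.00127). Slc6a11, a GABA transporter of astrocytes, had 48.0, 47.4 and 52.8 CPM in WT and 10.3, 6.90 and 9.19 CPM in KIN (−2.48 ± 0.28, adjusted p = 0.000535). Glul, which makes glutamine from glutamate, had 31.3, 31.2 and 30.5 CPM in WT and 9.39, 10.0 and 9.49 CPM in KIN (−1.68 ± 0.27). The 3 genes were called with every library left out, and within each group their values differed little. The glycine transporter Slc6a9 and the amino acid exchanger Slc7a10 differed by −2.43 ± 0.40 and −2.96 ± 0.54, and Slc7a10 lost its call without KIN replicate 2 or WT replicate 3. Slc1a3, the other glial glutamate transporter, did not pass (−0.68 ± 0.30, adjusted p = 0.141).

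Ion and water balance and gap junctions had 12 genes tested and 6 called lower. Atp1b2, a beta subunit of the sodium pump whose protein carries the epitope used to catch the cells, had 56.0, 56.3 and 65.0 CPM in WT and 18.8, 16.9 and 17.8 CPM in KIN (−1.73 ± 0.25, adjusted p = 0.00169). The part of the capture step in the differences was not tested. The bicarbonate transporter Slc4a4 differed by −1.81 ± 0.28, and the connexins Gja1 and Gjb6 by −1.74 ± 0.31 and −1.51 ± 0.42. Gja1 lost its call without WT replicate 3 (adjusted p = 0.0521), and Gjb6 kept it in 2 of the 6 fits without a library. The potassium channel Kcnj10 had 15.1, 12.8 and 16.6 CPM against 5.15, 3.45 and 6.23 CPM (−1.57 ± 0.34) and kept its call in 3 of the 6. Aqp4, the water channel of astrocyte endfeet, had 16.4, 18.4 and 20.7 CPM against 11.2, 10.0 and 11.6 CPM without overlap and did not pass (−0.76 ± 0.29, adjusted p = 0.0944).

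Secreted proteins, lipid metabolism and metallothioneins had 20 genes tested and 9 called lower. Sparcl1, a secreted protein that promotes synapses, had 85.4, 86.5 and 91.9 CPM in WT and 33.0, 26.0 and 29.1 CPM in KIN (−1.58 ± 0.23, adjusted p = 0.00169). The fatty acid desaturase Scd2 had 46.9, 48.4 and 48.7 CPM against 22.1, 19.8 and 22.2 CPM (−1.17 ± 0.24). Acsl3, which activates fatty acids, differed by −1.96 ± 0.37, the lipid phosphatase Plpp3 by −1.90 ± 0.34 and angiotensinogen Agt by −2.16 ± 0.44. Mfge8, a secreted protein that marks particles for uptake, had 6.74, 6.66 and 8.16 CPM against 1.51, 2.20 and 2.08 CPM (−1.88 ± 0.38). Of these, Sparcl1 and Plpp3 were called in all 6 fits without a library, Acsl3 in 4, Agt and Mfge8 in 3 and Scd2 in 2. The cargo proteins Apoe (−0.82 ± 0.27, adjusted p = 0.0618) and Clu (−0.59 ± 0.28) did not pass. Cpe, a peptide-processing enzyme, had 19.7, 20.7 and 23.1 CPM against 21.5, 20.4 and 17.2 CPM with overlapping groups.

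Identity genes, receptors and matrix had 25 genes tested and 14 called lower. Among them were the glycolytic enzyme Aldoc (27.5, 25.9 and 23.7 CPM against 12.1, 10.7 and 9.78 CPM, −1.24 ± 0.28), the growth factor receptor Fgfr3 (−1.62 ± 0.32), the neurotensin receptor Ntsr2 (−1.96 ± 0.35) and the tissue factor gene F3 (−2.58 ± 0.48). Ptprz1 and Bcan, a receptor and a proteoglycan of the matrix, differed by −1.23 ± 0.29 and −1.42 ± 0.32. Ntsr2 was called in all 6 fits without a library, Fgfr3 and F3 in 3, and Aldoc, Ptprz1 and Bcan in 1, the fit without WT replicate 2. Sox9, Aldh1l1 and S100b were not called. Ttyh1 lay on the other side with 4155, 4050 and 4242 CPM in WT and 6384, 7201 and 7140 CPM in KIN (0.74 ± 0.11, adjusted p = 0.00223), under the fold threshold, and −0.12 with miRNA factors. With its coding transcripts alone the difference of Ttyh1 was −1.83 ± 0.39 (adjusted p = 0.0158).

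Reactive astrocyte genes stayed near the count minimum, with 4 of 16 tested and 0 called by edgeR or DESeq2 (1 at an unadjusted p at most 0.05). Gfap, the filament protein of reactive astrocytes, had 3.50, 4.10 and 5.17 CPM in WT and 5.15, 3.45 and 3.26 CPM in KIN, with overlapping groups (−0.10 ± 0.38). Vim, another filament gene, had 1.89, 2.30 and 0.816 CPM against 2.72, 5.33 and 3.26 CPM (1.15 ± 0.47, adjusted p = 0.115).

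**Figure D3:**
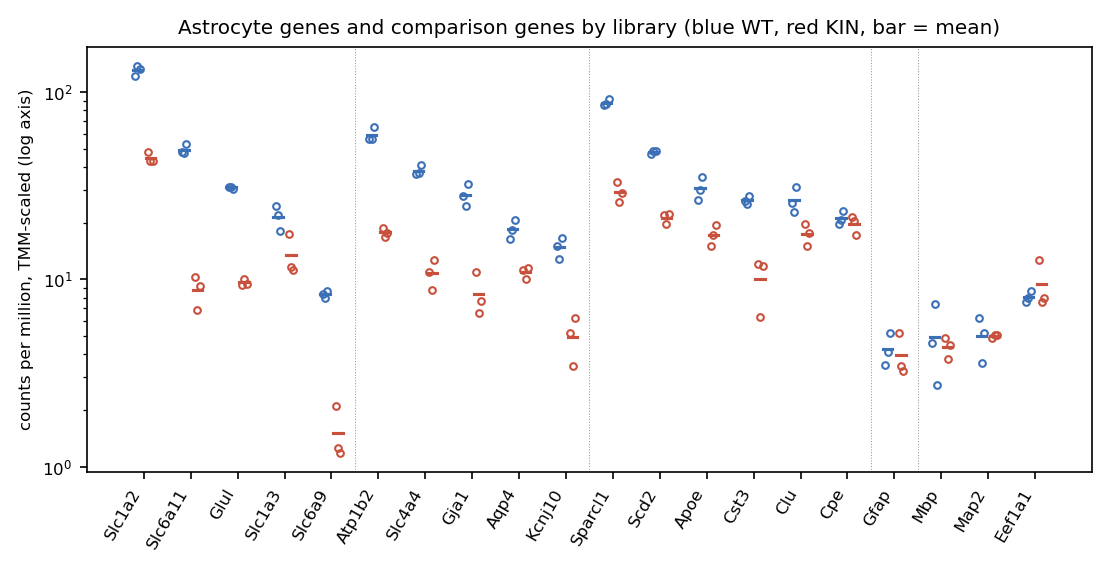
Levels of astrocyte genes and comparison genes in each library (CPM, TMM-scaled, log axis), blue for WT and red for KIN, with bars at the group means of 3 libraries. From left to right stand transmitter genes, ion and water genes, secreted and lipid genes, Gfap, and genes of other cells with Eef1a1. KIN values of Slc6a11, Atp1b2 and Glul lie below all WT values, and those of Cpe, Gfap, Mbp and Map2 are mixed with them.

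Most mRNAs in these libraries were rare, and the differences were read by level. Among mRNAs with a mean of 20 CPM or more, 13 astrocyte genes had 9 called lower and a median of −1.23, and 51 other genes had 3 called lower and a median of 0.31. At 10 CPM or more, 25 astrocyte genes had 19 called lower (median −1.38) and 101 other genes had 10 (median 0.15). At 5 CPM or more the counts were 24 of 36 and 43 of 251, with medians of −1.25 and −0.22. At 1 CPM or more they were 29 of 60 and 147 of 2381, with medians of −1.20 and −0.48. The astrocyte median was thus similar at each level, and that of the other genes was lower the more rare genes were taken in. Ribosomal protein genes, of which 13 of 40 counted as mRNAs, were called in 0 of 40 by edgeR or DESeq2, with 11 at an unadjusted p at most 0.05. Eef1a1, the translation elongation factor, had 7.54, 7.94 and 8.70 CPM against 12.7, 7.53 and 8.00 CPM (0.22 ± 0.33).

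Neuronal genes were lower as well. Of 29 genes, 17 were tested, 5 were called lower and 0 higher, and the median was −2.34. The summed level was 65.3 to 83.0 CPM in WT and 28.2 to 34.5 CPM in KIN. A rare gene can pass the count minimum through WT alone, which in part sets its direction and the median. Of the 17, 12 counted as mRNAs. Grin1 had 10 of its 203 counts on coding transcripts and Calb1 9 of 109, so part of the sum is noncoding reads. Kif5a, a motor of axonal transport, had 9.43, 14.3 and 6.53 CPM in WT and 0.303, 0.628 and 0 CPM in KIN. These were 115 counts against 3 counts, a ratio of 33.5 with a 95% exact counting interval of 11.2 to 165. Kif5a passed the count minimum through WT libraries alone. The vesicle protein Syt1, with Rph3a and Camk2a, was called lower. Kif5a was called in all 6 fits without a library, Rph3a in 2, and Syt1 and Camk2a in 1. Map2, a dendrite protein, had 6.20, 3.58 and 5.17 CPM against 4.84, 5.02 and 5.04 CPM (−0.00 ± 0.36). Genes of blood vessels were called in 0 of 9 and had no unadjusted p at most 0.05, with summed levels of 122 to 186 CPM in WT and 112 to 166 CPM in KIN. Of the 9, 6 counted as mRNAs. Egfl7, which holds the Mir126a hairpin, had 69.5, 132 and 92.2 CPM in WT with 4 of its 1985 counts on coding transcripts. Pecam1 had 1 of 690 there, so much of the vessel sum is noncoding reads. Genes of ependyma and choroid plexus were called in 0 of 3, likewise without an unadjusted p at most 0.05 or a DESeq2 call, with summed levels of 18.4 to 44.1 CPM in WT and 27.9 to 73.0 CPM in KIN.

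Genes of the motile cilium formed a small group on the higher side. The list was written after the values were seen, so its counts describe and test nothing. It had 15 of 81 genes tested, all with differences above 0, 5 called higher, and a median of 1.67. Each of the 5 passed the count minimum through its KIN libraries alone, so the filter in part set its direction. Those 5 were among the 8 mRNAs called higher, with Anks1b, Tpm3-rs7 and Zfp120. Dnah6, a heavy chain of the axonemal dynein motor, had 0.808, 0.256 and 0.544 CPM in WT and 3.94, 5.33 and 6.52 CPM in KIN (3.22 ± 0.51, adjusted p = 0.00269), and was called with every library left out. Dnah9, Dnah5 and Dnah12, further heavy chains, differed by 2.46 ± 0.56, 2.42 ± 0.73 and 1.87 ± 0.51, and Cfap54, a protein of the central apparatus, by 1.67 ± 0.51. These rest on 5 to 12 counts in WT and 25 to 45 counts in KIN, and of the 6 fits without a library Dnah9 and Dnah5 were called in 2, Dnah12 in 1 and Cfap54 in 0. Anks1b was called in 4, Zfp120 in 1 and Tpm3-rs7 in 0. Dnah14 had 25.9, 21.3 and 14.7 CPM against 34.8, 30.7 and 40.0 CPM and did not pass (0.77 ± 0.29, adjusted p = 0.0865).

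The lower side also held genes of sensory receptors that brain tissue is known to use little. Odorant, vomeronasal and taste receptor genes, a list also written after the values were seen, had 154 of 1601 tested, 38 called lower and 0 higher. A rare gene can pass the count minimum through WT alone, which in part sets its direction, so these counts describe and test nothing. The summed level of the list was 680 to 1242 CPM in WT and 432 to 800.2 CPM in KIN, so the groups overlapped. With 1 library left out, 0 (without WT replicate 3) to 94 (without WT replicate 2) were called lower. Vmn2r95 was found with 17 counts in WT and 0 in KIN, which is at least 4.95-fold higher in WT when 3 counts over the KIN group are taken as the floor. Asic1, an acid-sensing ion channel of neurons, was likewise at 17 counts against 0 and at least 4.95-fold higher in WT. Ncdn, a neuronal protein, had 26 counts in WT and 1 in KIN, a ratio of 22.7 with a 95% exact counting interval of 3.73 to 931. Vmn2r95, Asic1 and Ncdn were tested in 4 of the fits without a library and called in 1. Each of these, like the lncRNA Gm9877 named next, passed the count minimum through WT libraries alone, so the filter in part set its direction. Among lncRNAs, Gm9877 had 20.5, 1.54 and 16.0 CPM in WT and 0, 0.314 and 0.296 CPM in KIN, with WT replicate 2 near the KIN libraries (141 counts against 2, a ratio of 61.6 with an interval of 16.7 to 513), and was called in 4 of the 6. Pseudogenes were called lower in 51 of 140 (36.4%) with a median of −1.61. Of the 51, 1 was called in all 6 fits without a library and 38 in 1 fit or none. The 2 called higher were Gm12895 (98.1, 116 and 128 CPM against 251, 231 and 226 CPM, 1.05 ± 0.19) and Gm12896 (99.1, 100 and 117 CPM against 249, 264 and 227 CPM, 1.23 ± 0.18), and Gm12895 lost its call without WT replicate 1.

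**Figure D4:**
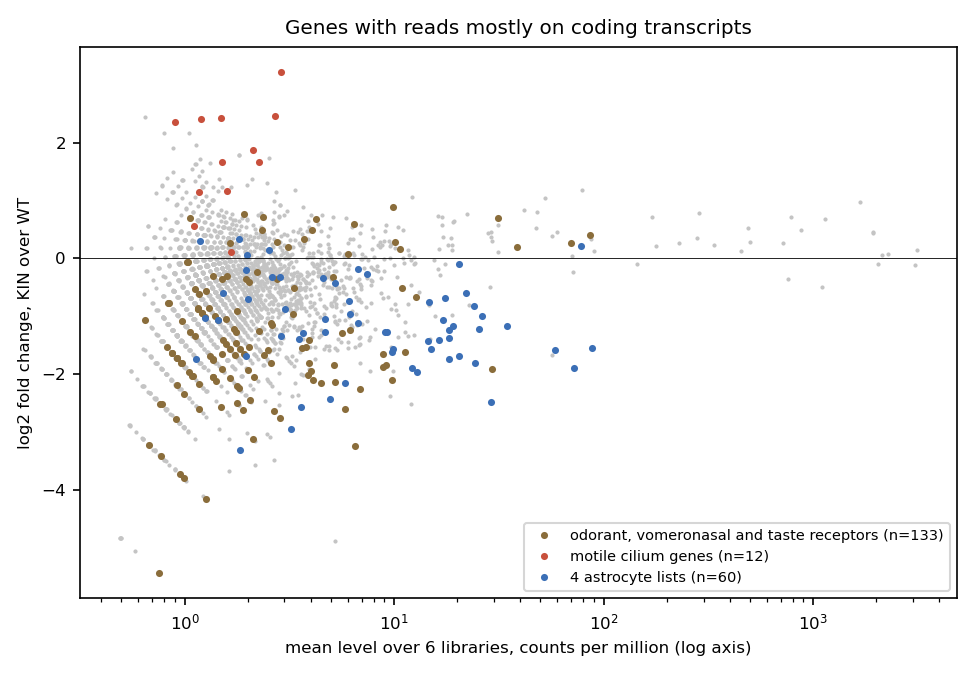
Each point is 1 gene with reads mostly on coding transcripts, placed by its mean level over 6 libraries (CPM, log axis) and its log2 fold change (KIN over WT). Coloured points are the 4 astrocyte lists, motile cilium genes, and odorant, vomeronasal and taste receptors. The astrocyte genes reach far to the right, at high levels, and lie mostly below 0.

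tRNAs for threonine were higher in 5 of 13 isodecoders, the most of any amino acid, and their groups did not overlap in 11. Groups did not overlap in 76 of all 176 isodecoders (43.2%) and in 34.3% of all features. tRNA-Thr-AGT-1 had 178, 216 and 169 CPM in WT and 400, 424 and 403 CPM in KIN (1.12 ± 0.17, adjusted p = 0.00226). tRNA-Thr-AGT-2 had 143, 165 and 138 CPM in WT and 344, 342 and 323 CPM in KIN (1.18 ± 0.17, adjusted p = 0.00182). Both were called with every library left out, as was tRNA-Thr-AGT-3 (38.8, 41.5 and 38.6 CPM against 92.6, 120 and 101 CPM, 1.40 ± 0.22). tRNA-Thr-CGT-4 and tRNA-Thr-TGT-2 differed by 1.35 ± 0.27 and 1.11 ± 0.19 and were called in 2 and 5 of the 6 fits without a library. Summed over threonine, 1773, 2142 and 1737 CPM in WT stood against 3358, 3841 and 3545 CPM in KIN. The threonine median was 0.95 and lay 1.25 to 1.30 above the median of all features under all 4 scalings. With DESeq2 size factors, library totals and miRNA factors, 9, 2 and 0 of the 13 were called. Near-identical isodecoders share reads, so a call for one is uncertain where the counting could split them.

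The other isodecoders called higher were for alanine, isoleucine and glutamate. tRNA-Glu-TTC-3 had 71.7, 83.5 and 78.6 CPM in WT and 174, 200 and 180 CPM in KIN (1.24 ± 0.19, adjusted p = 0.00226). All 6 tested isodecoders for isoleucine had groups without overlap, against 43.2% of all isodecoders. tRNA-Ile-AAT-4 had 21.8, 36.6 and 27.5 CPM against 63.3, 78.8 and 72.9 CPM (1.32 ± 0.26). The 8 tRNAs with the highest levels differed by less than the fold threshold. tRNA-Glu-CTC-1 had 14540, 10619 and 14040 CPM in WT and 18787, 20860 and 19939 CPM in KIN (0.60 ± 0.12, adjusted p = 0.0102, and −0.29 with miRNA factors). tRNA-Lys-CTT-3 had 4474, 4319 and 4374 CPM against 6623, 7511 and 7353 CPM (0.71 ± 0.11, adjusted p = 0.00245). The 1 isodecoder called lower was tRNA-Gly-CCC-2, with 23.7, 64.0 and 31.8 CPM in WT and 11.8, 12.2 and 14.8 CPM in KIN (−1.62 ± 0.36, adjusted p = 0.0167), a call that was lost without any 1 of the KIN replicates and without WT replicate 3. All 22 amino acid groups, initiator methionine and selenocysteine among them, had a median above 0, and 14 of the 22 did with library totals and 2 of the 22 with miRNA factors.

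**Figure D5:**
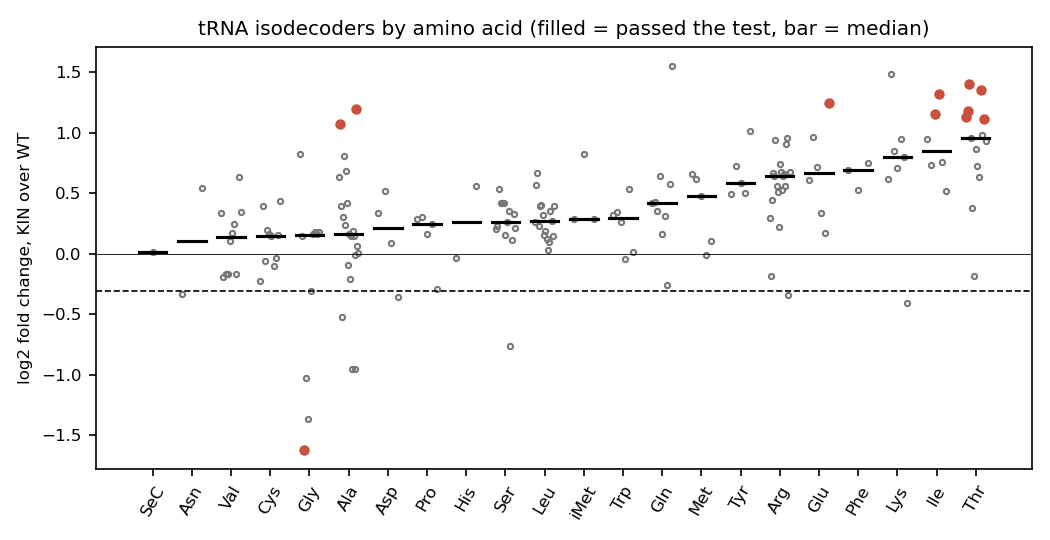
Each point is 1 of 176 tRNA isodecoders, placed by its log2 fold change (KIN over WT) above the amino acid it carries, with filled points for those called and bars at the medians. The solid line is 0 and the dashed line the median of all features at −0.31. Threonine, at 0.95, has the highest median and 5 filled points.

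snoRNAs differed by where they are encoded. The split by host locus was made after the values were seen. The 193 tested snoRNAs inside Snhg14, the long host transcript of the imprinted Prader-Willi region at chr7:58957672-59628040 on the minus strand, had 192 differences below 0 and a median of −0.66. Their summed level was 7184, 3645 and 7640 CPM in WT and 3741, 3420 and 4843 CPM in KIN, so that WT replicate 2 lay among the KIN libraries, and 2 of the 193 were called lower. The copies are near-identical and share reads, so they are not separate measurements. The 347 snoRNAs outside Snhg14 and Rian had a median of 0.23 (−0.01 with library totals and −0.59 with miRNA factors), with 3 called higher and 1 lower, and summed levels of 204836 to 235186 CPM in WT and 229107 to 258787 CPM in KIN. Rian, the maternally expressed host of another snoRNA array at chr12:109570242-109628150 on the plus strand, had 1306, 533 and 1395 CPM in WT and 409, 466 and 704 CPM in KIN (−1.03 ± 0.30, adjusted p = 0.0386), and its groups overlapped. Its neighbour Meg3 was at 21.9 ± 12.2 CPM in WT and 5.68 ± 0.241 CPM in KIN (mean ± SD, −1.94 ± 0.44 SE). Rian and Meg3 were called in 1 of the 6 fits without a library, the fit without WT replicate 2.

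Spliceosomal and other abundant small RNAs lay mostly on the higher side, under the fold threshold. Of 20 tested genes on that list, 17 had a difference above 0, with a median of 0.45 (−0.37 with miRNA factors). The groups did not overlap in 14 of the 20, against 34.3% of all features. None was called (0 of 20), DESeq2 called 1, 11 had an unadjusted p at most 0.05 and 6 an adjusted p at most 0.05. Rnu2-10, a copy of the U2 snRNA, had 1452, 1801 and 1341 CPM in WT and 2256, 2391 and 2459 CPM in KIN (0.63 ± 0.14, adjusted p = 0.0172, and −0.18 with miRNA factors), and the Y RNA Rny3 had 1485, 2056 and 1449 CPM against 1140, 1124 and 1135 CPM (−0.55 ± 0.16, adjusted p = 0.0365). Both were under the fold threshold. C/D box snoRNAs were called in 0 of 113 (16 at an unadjusted p at most 0.05, and 0 by DESeq2) and H/ACA box snoRNAs in 1 of 40. The latter had a median of 0.33 (−0.50 with miRNA factors) and 27 of 40 without overlap, against 34.3% of all features. The called one was Snora24, with 11.3, 9.99 and 10.3 CPM in WT and 19.7, 22.9 and 21.0 CPM in KIN (1.01 ± 0.28), and it lost its call whichever library was left out. Mitochondrial RNAs were called in 0 of 37 by edgeR or DESeq2, with 3 at an unadjusted p at most 0.05.

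piRNA-annotated features were lower in 30 of 161 (18.6%) and higher in 3, with a median of −0.85. Of the 30, 0 were called in all 6 fits without a library and 28 in 1 fit or none. piRNAs are small RNAs known from the germ line, and the annotated sequences were compared with other transcripts. Of the 136 with a sequence in the deposited table, 114 occur letter for letter in an annotated transcript of GRCm39. Of the 26 called lower with a sequence, 15 occur in transcripts of 10 or more genes and 7 in none. The pair of higher piRNAs shown here, mmu-piR-18450 and mmu-piR-13530, lie in the Mir532 hairpin at chrX:7114641-7114736 on the minus strand, and the latter has the letters of miR-532-3p, with T for U.
mmu-piR-18450: catgccttgagtgtaggaccgt
mmu-piR-13530: cctcccacacccaaggcttgca
mmu-miR-532-3p: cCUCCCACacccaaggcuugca

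mmu-piR-13530 had 2.96, 5.12 and 2.45 CPM in WT and 11.5, 10.4 and 9.78 CPM in KIN (1.57 ± 0.37, adjusted p = 0.0191), and mmu-miR-532-3p had 9.16, 15.1 and 8.70 CPM in WT and 29.1, 28.6 and 21.6 CPM in KIN (1.26 ± 0.31, adjusted p = 0.0235). mmu-piR-18450 differed by 1.08 ± 0.29. The third, mmu-piR-59557, occurs in transcripts of the 7SL RNA of the signal recognition particle and had 24.0, 13.6 and 34.0 CPM in WT and 53.0, 58.4 and 47.1 CPM in KIN (1.15 ± 0.31). Of the 6 fits without a library, mmu-piR-13530 and mmu-piR-18450 were called in 1 and mmu-piR-59557 in 0.

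By share of all counts, mature miRNAs took 6.48% ± 1.66 (SD, n = 3) in WT and 9.30% ± 0.971 in KIN, and tRNAs 10.8% ± 0.568 and 12.1% ± 0.282. piRNAs took 4.93% ± 0.0932 and 4.42% ± 0.0426. The groups did not overlap in any of the 5 classes, each with a two-sided exact permutation p of 0.1, the smallest that 3 against 3 can give. Atxn2 itself, whose coding region carries the expansion, was found with 10, 3 and 7 counts in WT and 3, 3 and 7 counts in KIN and gave no check of the labels (−0.42 ± 0.59, adjusted p = 0.655).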

How the data were processed

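Small RNA was measured in 18 libraries, of which the 6 astrocyte libraries were compared. The authors trimmed reads with Cutadapt 4.6, aligned them with Bowtie2 2.4.4 to mm39 in an iterative local mode, and counted them with HTSeq 2.0.2 without strand, and the deposited values are raw counts per transcript, tRNA gene copy, miRNA or piRNA. The kit adds molecular identifiers, and their collapsing is not described for small RNA, so intervals cover counting error only. The deposited fold changes and p-values of the authors' own comparisons were not used, nor were 36 columns of normalized per-library values.

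Of 203513 deposited features, 146263 were Ensembl features. Of these, 145452 were matched to GENCODE vM39 by identifier and a further 594 by name. Copies and transcripts were summed to 110678 features (407 tRNA copies to 218 isodecoders). The members and lists were chosen with earlier results of these data known. edgeR 4.0.16 (R 4.3.3) was run with TMM factors and its quasi-likelihood test with genotype as the only term, with Benjamini-Hochberg adjustment over 6433 features, and every adjusted p in the text comes from it. Named features were the strongest called features without overlap per RNA class, the members of each list with the highest level, defining astrocyte genes, called tRNAs and seed families, and further members are named beside them. A gene was an mRNA when at least 50% of its counts fell on coding transcripts. In simulated data of this size, 39% of 100 features changed by 1.5 (log2) and 75% of 100 changed by 2.5 were recovered, with 4 false calls. Alternatives were 3 other scalings, DESeq2 1.42.0, no filter, a replicate block, leaving out each library, a fit of all 18 libraries, unsummed features and, chosen after seeing the data, coding transcripts alone. Replicates are separate animals per the study. Some members of the lists are counted in them and not reported here by name.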

Additional observations from a re-analysis of the deposited data

How the results depend on the processing

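The number of calls depended on the scaling and on single libraries. The main fit called 605 features, 167 higher and 438 lower. With DESeq2 size factors in edgeR 303 were higher, 122 of them mature miRNAs. With library totals 63 were higher, 30 of them mature miRNAs, and 598 lower. With TMM factors from mature miRNAs alone 1632 were called, 18 higher and 1614 lower, with 10 miRNAs higher and 700 mRNAs lower. DESeq2 gave 261 higher and 216 lower, with 82 mRNAs lower. With no filter 296 were higher, with 119 miRNAs higher, 108 mRNAs lower and 23 astrocyte genes lower. A fit of all 18 libraries called 296, 159 of them lower, with 47 mRNAs and 16 astrocyte genes lower. Without summing copies and transcripts 102 were higher, 47 of them miRNAs. With 1 library left out the total ranged from 58 (without WT replicate 3) to 1613 (without WT replicate 2), the higher calls from 28 to 379, the lower calls from 30 to 1234, higher miRNAs from 10 to 180, lower mRNAs from 12 to 551 and lower astrocyte genes from 10 to 38. Without KIN replicates 1, 2 and 3 and WT replicate 1, 89, 92, 173 and 139 were called. The counts of higher miR-17-92 and lower epithelial miRNAs stayed within 1.5 times their main value in every alternative run. With coding transcripts alone, Ttyh1 turned to −1.83. The replicate block called 822 features, 216 higher and 606 lower, 601 of them shared with the main fit. Libraries of the same number did not deviate together (correlations over features of −0.00, 0.01 and 0.06), and not every library correlated best with its own number, so the numbers were not taken as pairs.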

Other observations

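The miRNAs that were lower in KIN astrocytes were also read in the other fractions, which come from the same brains and are therefore not independent. Levels here are CPM on all counts of a library, without TMM factors, as mean ± SD of 3 libraries. In microglia, miR-200a-3p was at 20.4 ± 6.78 CPM in WT and 2.46 ± 0.769 CPM in KIN, and in neurons at 12.7 ± 2.19 and 1.93 ± 1.94 CPM. miR-429-3p was at 8.38 ± 1.61 and 0.985 ± 0.757 CPM in microglia and at 5.90 ± 2.46 and 0.824 ± 0.825 CPM in neurons. miR-182-5p was at 6.40 ± 1.91 and 0.386 ± 0.482 CPM in microglia. miR-200c-3p was at 9.32 ± 1.74 and 7.05 ± 2.53 CPM in microglia, close to each other.

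For miR-335-5p the other fractions gave 8.28 ± 0.691 CPM in WT and 6.17 ± 0.564 CPM in KIN microglia, and 45.5 ± 34.2 and 41.8 ± 9.62 CPM in neurons, against 53.5 ± 11.7 and 221 ± 18.2 CPM in astrocytes on the same scale. miR-17-5p was at 234 ± 10.9 and 285 ± 76.3 CPM in microglia and at 53.7 ± 30.6 and 74.7 ± 28.5 CPM in neurons. tRNA-Thr-AGT-1 was at 107 ± 60.5 and 219 ± 49.5 CPM in microglia and at 84.0 ± 34.3 and 132 ± 56.2 CPM in neurons. Whether the effect of the genotype differs between fractions was not tested here.

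Some gene counts stand for the small RNA inside the gene. Rpl13 had 9844 CPM and the Snord68 snoRNA in its intron 9801 CPM in WT replicate 1. Of 641 protein-coding genes with reads mostly on noncoding transcripts, 120 hold an annotated small RNA gene, and these take 85.3% of the counts of that class.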
